A study of Mus musculus with 12 samples.

Results

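The matrix metalloproteinases (MMPs), the ADAMs, the ADAMTS enzymes, the ADAMTS-like proteins and the tissue inhibitors of metalloproteinases (TIMPs) were followed in mouse osteoblastic cells given TNFa, BMP4 or both. Members were taken by gene symbol alone, as Mmp, Adam, Adamts or Adamtsl followed by a number and at most 1 letter, or Timp followed by a digit. This rule matched 84 of the 25124 entries of the deposited table. Of these, 27 were listed at 0 in every library, which left 57 members, and 35 of the 57 reached a mean log2 value of at least 4 and were tested among 11765 genes.

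The cells were MC3T3-E1, a line of preosteoblasts first grown from mouse calvaria. All 12 libraries came from cells held for 30 min in 2.5% serum, and they form 4 groups of 3: untreated, TNFa at 10 ng/mL, BMP4 at 10 ng/mL, and both factors, with TNFa added 30 min ahead of a 3 h BMP4 stimulation. The protocol and the sample characteristics do not give the same length of TNFa exposure, and the titles of the TNFa libraries hold an unexplained "p65". Replicate 1 of each group was batch 1 and replicates 2 and 3 were batch 2, as the labels number them. The labels do not say that replicates were separate cultures, so the p-values measure the spread between these samples only, which may be technical.

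MMPs are zinc enzymes, secreted or held at the membrane, that cut collagens and other matrix proteins. ADAMs are membrane proteins, and those with a catalytic site release the outer part of other cell-surface proteins. ADAMTS enzymes are secreted, carry thrombospondin repeats and cut proteoglycans or trim procollagens, and the ADAMTS-like proteins share the repeats but lack the protease. TIMPs bind the active site of MMPs, and TIMP-3 also inhibits several ADAM and ADAMTS enzymes. In bone these enzymes take part in collagen turnover and in the growth and repair of the skeleton.

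Tag totals were 13.7 to 15.5 M in 11 libraries and 20.6 M in TNFa+BMP4 replicate 2. Of 8 osteoblast lineage markers, the log2 values as means of 12 libraries were 17.49 for Col1a2, 17.26 for Col1a1, 12.54 for Spp1, 10.31 for Runx2 and 5.29 for Sp7. Alpl (0.35), Bglap (-0.03) and Ibsp (-1.23) were near or below 0. The chondrocyte markers Col2a1 (14.95) and Sox9 (12.09) were high, whereas Acan and Col9a1 were listed at 0. Of the leukocyte markers, Ptprc was at -1.97 and Adgre1 and Cd3e at 0, with Cd14 at 5.91 and Lyz2 at 4.71. Of the endothelial and epithelial markers, Cdh5 was at -2.21 and Kdr, Epcam, Krt8 and Krt18 at 0, with Pecam1 at 4.95 and Cdh1 at 5.21. In bulk RNA, fewer cells of a type and less RNA per cell cannot be told apart.

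Per kilobase of transcript and over all 12 libraries, the 3 tested inhibitors were the most abundant members. The fourth, Timp4, had the lowest mean log2 value of all 57 members. Without the length term, Timp1 (11.56) lay below Mmp2 (13.22), Mmp14 (12.48), Adamtsl3 (12.24) and Adamtsl4 (11.85). On the log2 scale per kilobase of transcript, as means of 12 libraries, Timp2 stood at 13.25, Timp3 at 12.50 and Timp1 at 11.75. The gelatinase Mmp2 (11.61) and Mmp14 (10.55), the membrane enzyme that activates pro-MMP-2, were the highest proteases. As group means per kilobase over both batches, Mmp2 stood above Timp1 in untreated cells and with BMP4, and below it in the groups with TNFa. The batches differed in this order. With TNFa alone Mmp2 stood above Timp1 in batch 2, and with BMP4 it stood below Timp1 in the batch 1 library. As a mean over the batch 2 libraries, Mmp2 stood above Timp1. Adamtsl4 (9.84) and Adamtsl3 led the ADAMTS-like genes, Adam10 and Adam9 the ADAMs, and Adamts2, a procollagen N-proteinase, the ADAMTS group. The lowest tested members on this scale were Adam22 (1.62), Adamts14 (2.31) and Mmp15 (2.45).

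**Figure D1:**
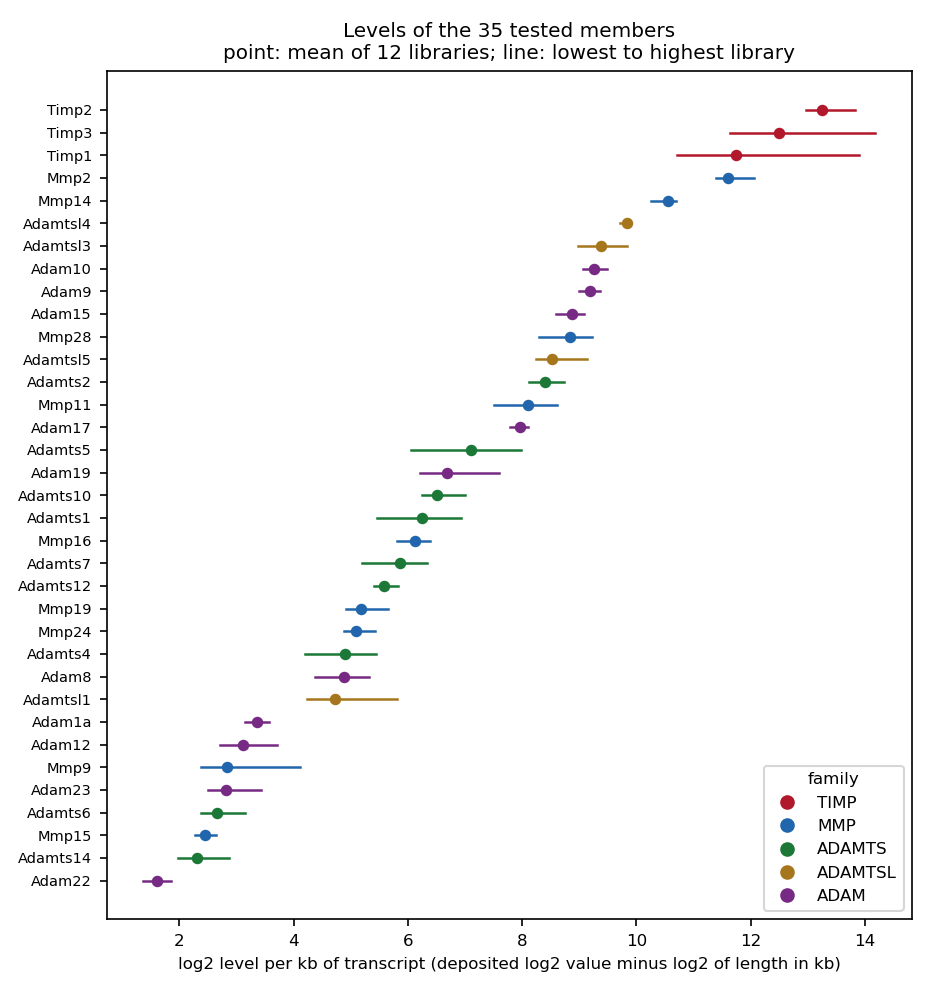
Log2 level per kilobase of transcript (x axis, deposited log2 value minus log2 of transcript length in kilobases) of the 35 tested members (y axis), colored by family. Points are means of 12 libraries and lines run from the lowest to the highest library; the 3 tested TIMPs lie at the top, from 11.75 to 13.25, and Timp1 and Timp3 have the longest lines among them.

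By family, 3 of 4 TIMP symbols, 9 of 23 MMP symbols, 9 of 19 ADAMTS symbols, 4 of 5 ADAMTS-like symbols and 10 of 33 ADAM symbols were tested. Mmp9 lay just above the minimum, with a mean log2 value of 4.49, and Adam11 just below it, at 3.88. The other members below it were Timp4, Mmp13, Mmp17, Mmp21, Mmp23, Mmp25, Adamts8, Adamts9, Adamts13, Adamts15, Adamts16, Adamts17, Adamts20, Adamtsl2, Adam1b, Adam4, Adam5, Adam21, Adam30, Adam32 and Adam33, with means from -2.21 (Timp4) to 3.49 (Adam4). Among the 27 symbols at 0 were Mmp3, Mmp8, Mmp10 and Mmp12, and 15 ADAM genes such as Adam2, Adam3 and Adam7. A run of 10 neighboring MMP genes on chromosome 9, from 7272514 to 7699585 in mm10, was almost silent. Of these 10, 9 were listed at 0 and Mmp13, the collagenase of hypertrophic cartilage and osteoblasts, had log2 values from -1.49 to -1.46 in all 12 libraries.

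Upstream sequences were available for 23 of the 35 tested members (RefSeq, GRCm38.p6), and 5 are shown: 3 members called in all 5 pairwise comparisons (Timp1, Timp3, Adamts1), Mmp11, which TNFa and BMP4 moved in opposite directions, and Adam19, which holds every motif searched. Each run is the 250 bases before the annotated start, 5′ to 3′ on the gene's strand, in lower case, with matches to the searched motifs in capitals. The windows are chrX:20869916-20870165 (plus strand) for Timp1, chr10:86300162-86300411 (plus) for Timp3, chr16:85803114-85803363 (minus) for Adamts1, chr10:75932503-75932752 (minus) for Mmp11 and chr11:46055734-46055983 (plus) for Adam19.
Timp1: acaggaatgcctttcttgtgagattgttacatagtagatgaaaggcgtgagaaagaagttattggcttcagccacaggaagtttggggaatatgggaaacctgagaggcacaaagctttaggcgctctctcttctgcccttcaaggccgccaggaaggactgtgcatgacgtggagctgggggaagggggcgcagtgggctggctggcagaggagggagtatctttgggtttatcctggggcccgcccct
Timp3: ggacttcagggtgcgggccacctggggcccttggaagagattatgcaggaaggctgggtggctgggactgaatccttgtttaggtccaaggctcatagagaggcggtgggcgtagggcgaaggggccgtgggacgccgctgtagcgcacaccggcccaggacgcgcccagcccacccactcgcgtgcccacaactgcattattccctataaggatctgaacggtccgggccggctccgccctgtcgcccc
Adamts1: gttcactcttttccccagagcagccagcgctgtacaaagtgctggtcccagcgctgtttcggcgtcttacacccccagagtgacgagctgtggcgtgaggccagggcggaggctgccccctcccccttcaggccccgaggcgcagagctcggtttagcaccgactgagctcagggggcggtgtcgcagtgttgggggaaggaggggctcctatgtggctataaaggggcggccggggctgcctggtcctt
Mmp11: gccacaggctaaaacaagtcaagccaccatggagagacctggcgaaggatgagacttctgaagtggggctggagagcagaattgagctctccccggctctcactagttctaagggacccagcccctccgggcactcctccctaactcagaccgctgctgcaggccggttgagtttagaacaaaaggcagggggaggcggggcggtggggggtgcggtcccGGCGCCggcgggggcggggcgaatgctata
Adam19: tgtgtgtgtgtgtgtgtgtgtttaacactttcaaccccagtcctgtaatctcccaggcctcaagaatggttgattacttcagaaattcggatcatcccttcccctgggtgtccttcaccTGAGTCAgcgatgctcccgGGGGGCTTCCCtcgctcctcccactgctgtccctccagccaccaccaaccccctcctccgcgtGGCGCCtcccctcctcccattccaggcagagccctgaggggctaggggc

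The motifs were TGANTCA (AP-1), GGCGCC (a GC-rich Smad element) and the NF-kB consensus, each sought on both strands. They occur in 6.75%, 9.59% and 7.25% of 32851 mouse windows of the same length. AP-1 and NF-kB matches were each found in 1 of the 23 members, in both cases Adam19, at 131 and at 112 bases before the start, where 2 NF-kB matches overlap. GGCGCC was found in 6 of 23 (Adam17, Adam19, Adamts14, Adamts2, Adamtsl5 and Mmp11). No match in the windows of Timp1, Timp3, Mmp28 and Adamts1 says only that these letters are absent there. Their GC content was 54.4% for Timp1, and 65.6% for Timp3 and for Adamts1, against a median of 52.4% over all windows. A match is a description of the sequence, not a site in use.

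Fold changes below are log2 differences from a model with batch as a term, fitted with limma to every tested gene, ± SE, and calls are made where the p adjusted by Benjamini-Hochberg over all 11765 genes is under 0.05. TNFa moved 14 of the 35 tested members, 8 higher and 6 lower, against 15.5% of all genes tested (9.16% higher, 6.32% lower). The median was -0.01 over members and over all genes. BMP4 moved 10, 7 higher and 3 lower, against 12.2% of all genes (6.75% higher, 5.47% lower), with a median of -0.01 over members and 0.00 over all genes. Both factors together moved 16 relative to untreated cells, 8 higher and 8 lower, against 31.2% of all genes (16.8% higher, 14.4% lower), with medians of -0.04 and 0.00. Relative to TNFa alone, both factors moved 10, 6 higher and 4 lower, against 11.7% of all genes (5.47% higher, 6.2% lower), with medians of -0.05 and 0.00. Relative to BMP4 alone they moved 13, 6 higher and 7 lower, against 16.2% (8.78% higher, 7.41% lower), with medians of -0.05 and -0.01. Called members had the same direction in both batches in every comparison. The calls come from a fit to these same batches, so this is no separate check. Of the 35 members, 20 were called in at least 1 of 6 contrasts, the interaction described further on included, against 39.6% of all genes. Without untreated replicate 1 the count was 6 for BMP4 and 10 for both factors, against 756 and 2560 of all genes. For both factors it was also 10 without TNFa+BMP4 replicate 1, against 2605 of all genes. Relative to BMP4 it was 8 without BMP4 replicate 3 or TNFa+BMP4 replicate 1, against 1537 and 1320 of all genes. Without the batch term the 5 counts were 2, 0, 2, 0 and 2, against 383, 114, 869, 105 and 345 of all genes. With the batch term and all libraries, the counts over all genes were 1822, 1438, 3673, 1373 and 1905. These comparisons share samples, so their counts are not independent. The authors' deposited table, whose adjusted p is under 0.05 for 8.81%, 4.88%, 14.3%, 7.06% and 8.23% of 17701 genes in the same order, also calls 14 of the 14, 9 of the 10, 12 of the 16, 10 of the 10 and 11 of the 13 members. It alone calls Mmp9 and Timp2 from TNFa to both and Adam19 from BMP4 to both.

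**Figure D2:**
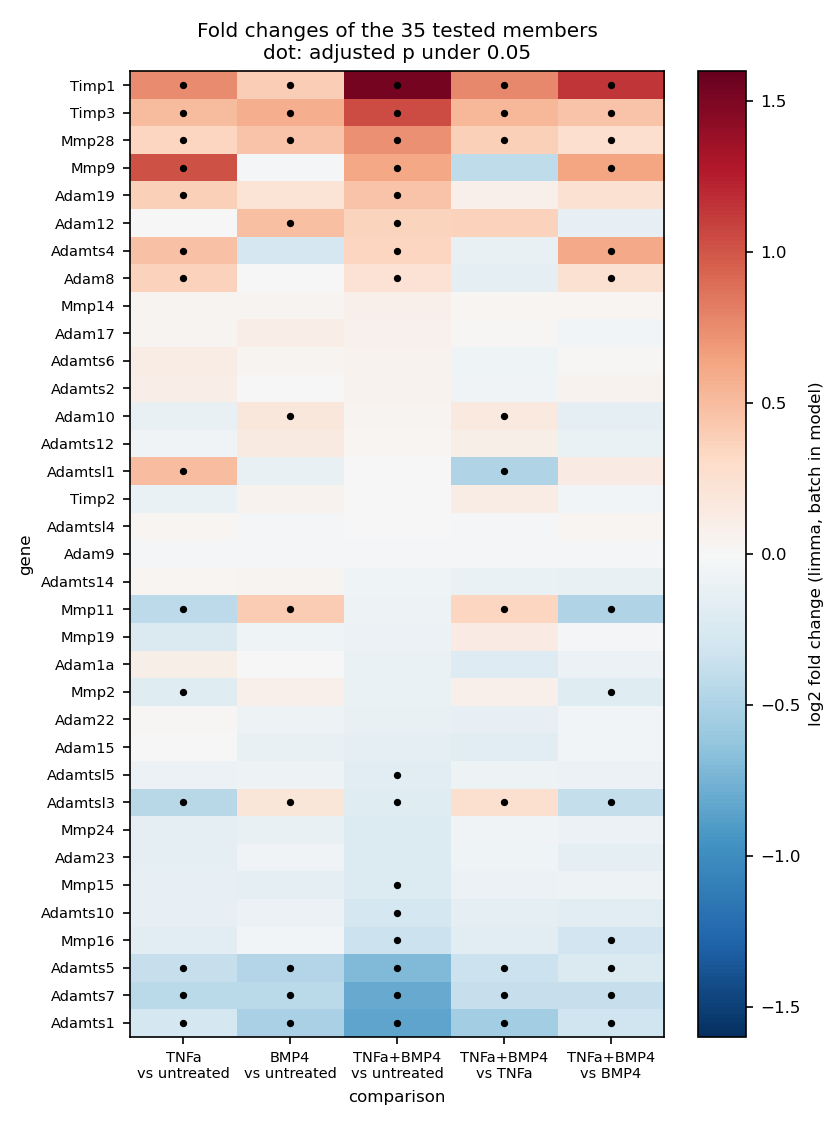
Log2 fold changes (color, from limma with batch in the model) of the 35 tested members (rows) in 5 comparisons (columns), ordered by the change with both factors. Dots mark adjusted p under 0.05; Timp1, Timp3 and Mmp28 are red with a dot in every column, and Adamts1, Adamts5 and Adamts7 are blue with a dot in every column.

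Of the 3 tested inhibitors, 2 rose with each factor, against 9.16% of all genes called higher with TNFa and 6.75% with BMP4. Those 2 were highest with both factors. Timp1 (NM_011593, X:20870166-20874737, plus strand, mm10) encodes a soluble inhibitor of most MMPs. Its log2 values, in the order of replicates 1, 2 and 3 used throughout, were 11.59, 10.53 and 10.55 untreated, 12.61, 11.16 and 11.18 with TNFa, 12.23, 10.77 and 10.84 with BMP4, and 13.70, 11.76 and 11.80 with both. The 3 libraries with both factors lay above all untreated libraries, and in batch 2 the order was untreated, BMP4, TNFa, both without overlap. Timp1 rose by 0.76 ± 0.10 with TNFa (adjusted p = 1.1e-05), by 0.39 ± 0.10 with BMP4 (0.0141) and by 1.53 ± 0.10 with both (3.2e-10). It was also higher with both factors than with TNFa (0.77 ± 0.10) or BMP4 alone (1.14 ± 0.10). The BMP4 call was lost without untreated replicate 1 (0.21, adjusted p = 0.167) and without BMP4 replicate 3 (0.37, adjusted p = 0.0567). It was also lost, at the same fold change, with no minimum level, with no variance trend and with robust moderation of the variances.

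Timp3 (NM_011595, 10:86300412-86349505, plus strand) encodes the inhibitor that stays bound to the matrix. Its log2 values were 14.83, 13.88 and 13.86 untreated, 15.78, 14.16 and 14.14 with TNFa, 15.69, 14.28 and 14.35 with BMP4, and 16.41, 14.63 and 14.66 with both. Batch 1 lay above batch 2 in every group, so pooled groups overlapped, while within each batch every treated library exceeded its untreated ones. Timp3 rose by 0.51 ± 0.10 with TNFa (adjusted p = 0.000957), 0.58 ± 0.10 with BMP4 (0.000443) and 1.04 ± 0.10 with both (7.79e-08). Its step from TNFa to both was 0.54 ± 0.10 and from BMP4 to both 0.46 ± 0.10, each called. Without untreated replicate 1 the TNFa change was 0.30 and the BMP4 change 0.37, both still called. With robust moderation of the variances the TNFa call and both steps to the combined treatment were lost, at the same fold changes. Of its 8144 exon bases, 1733 overlap Syn3 on the other strand, whose own log2 value was 5.51 and which was called in none of the comparisons. Timp2, the most abundant inhibitor, was called in none either. With quantile normalization limma called it lower with TNFa (-0.18, adjusted p = 0.014) and with both (-0.14, adjusted p = 0.0378). The authors' deposited table has it higher with both than with TNFa (0.12, adjusted p = 0.044).

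Among MMPs, 4 of 9 tested were called with TNFa (2 higher, 2 lower), 2 with BMP4 (both higher) and 4 with both factors (2 higher, 2 lower). The shares of all genes called in these comparisons were 15.5%, 12.2% and 31.2%. Mmp28 (NM_001320300, 11:83440768-83463040, minus strand), epilysin, was the only tested MMP called higher in all 5 pairwise comparisons, as were Timp1, Timp3 and 0.467% of all genes tested. Its log2 values were 10.11, 10.31 and 10.40 untreated, 10.54, 10.54 and 10.79 with TNFa, 10.83, 10.60 and 10.75 with BMP4, and 11.03, 10.97 and 11.00 with both. The untreated libraries lay below all treated ones, and those with both factors lay above all others. Mmp28 rose by 0.35 ± 0.08 with TNFa (adjusted p = 0.0021), 0.45 ± 0.08 with BMP4 (0.0003) and 0.73 ± 0.08 with both (2.16e-07). The step from BMP4 to both, 0.27 ± 0.08, was not called without BMP4 replicate 2 (0.20) or TNFa+BMP4 replicate 1 (0.23), nor with no minimum level. Mmp28 shares 466 of 3874 exon bases with 1700020L24Rik on the opposite strand, which rose by 0.26 with TNFa, 0.40 with BMP4 and 0.62 with both. Whether counting used strand is not given in the sources used here, so the reads of these 2 genes cannot be told apart in the shared bases.

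Mmp9 (NM_013599, 2:164948219-164955850, plus strand), gelatinase B, was near the lower end of the table and rose with TNFa. Its log2 values were 4.07, 4.09 and 4.09 untreated, 4.10, 4.07 and 4.04 with BMP4, 5.77, 4.78 and 4.77 with TNFa, and 5.06, 4.56 and 4.48 with both. Every library with TNFa lay above every library without it, and the libraries without TNFa were all between 4.04 and 4.10. Mmp9 rose by 1.02 ± 0.14 with TNFa (adjusted p = 1.16e-05) and by 0.61 ± 0.14 with both (0.00176). Relative to BMP4 it was 0.63 ± 0.14 higher with both (0.0025), and with BMP4 alone it differed from untreated by -0.02 ± 0.14. The difference from BMP4 to both was not called with robust moderation. Log2 values this low are compressed in the table, and the authors' deposited table gives fold changes of 5.13 for TNFa and 4.11 for both. With both factors it stood 0.41 ± 0.14 below TNFa alone, which was not called (adjusted p = 0.0579), whereas the authors' deposited table gives -0.97 with an adjusted p of 0.0136.

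Mmp11 (NM_008606, 10:75923222-75932502, minus strand), stromelysin-3, moved in opposite directions with the 2 factors. Its log2 values were 9.20, 9.38 and 9.39 untreated, 8.69, 9.01 and 8.99 with TNFa, 9.60, 9.77 and 9.79 with BMP4, and 9.16, 9.25 and 9.32 with both. All TNFa libraries were below and all BMP4 libraries above the untreated ones, and the libraries with both factors overlapped the untreated range. Mmp11 fell by 0.42 with TNFa (SE 0.06, adjusted p = 1.86e-05), rose by 0.40 ± 0.06 with BMP4 (7.15e-05) and differed by -0.08 ± 0.06 with both. Starting from TNFa it rose by 0.34 ± 0.06 with both factors, and starting from BMP4 it fell by 0.48 (SE 0.06). The shared 155 of its 2778 exon bases belong to Chchd10, whose log2 value was 2.31.

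The remaining called MMPs fell by less. Mmp2 (NM_008610) had log2 values of 13.45, 13.16 and 13.23 untreated, 13.18, 13.01 and 13.06 with TNFa, 13.67, 13.16 and 13.24 with BMP4, and 13.38, 13.01 and 13.11 with both. Pooled groups overlapped, and within each batch the TNFa libraries were below the untreated ones. It fell by 0.19 with TNFa (SE 0.06, adjusted p = 0.0244) and by 0.19 from BMP4 to both (0.0253). The first call was lost without untreated replicate 3, TNFa replicate 1 or TNFa replicate 2 (-0.21 to -0.12), and the second without BMP4 replicate 1 or 3 or TNFa+BMP4 replicate 1 or 2 (-0.20 to -0.11). Both were also lost with no minimum level and with no variance trend.

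Mmp16, a membrane-type MMP, had log2 values of 8.46, 8.58 and 8.32 untreated, 8.39, 8.23 and 8.26 with TNFa, 8.50, 8.30 and 8.46 with BMP4, and 8.00, 8.13 and 8.20 with both. The libraries with both factors were below all others. Mmp16 fell by 0.34 with both (SE 0.08, adjusted p = 0.00341) and by 0.30 relative to BMP4 (0.0144), the latter call being lost without BMP4 replicate 1 or 3 or TNFa+BMP4 replicate 1 (-0.28 to -0.22) and in batch 2 alone. Mmp15, another membrane-type MMP, had log2 values of 4.71, 4.58 and 4.74 untreated, 4.47, 4.62 and 4.54 with TNFa, 4.48, 4.55 and 4.58 with BMP4, and 4.37, 4.53 and 4.47 with both. Its libraries with both factors lay below the untreated ones, and it fell by 0.22 (SE 0.07, adjusted p = 0.0209). That call was lost without untreated replicate 1 or 3 or TNFa+BMP4 replicate 1 or 3 (-0.22 to -0.17) and in batch 2 alone. Mmp14, Mmp19 and Mmp24 were called in no comparison.

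**Figure D3:**
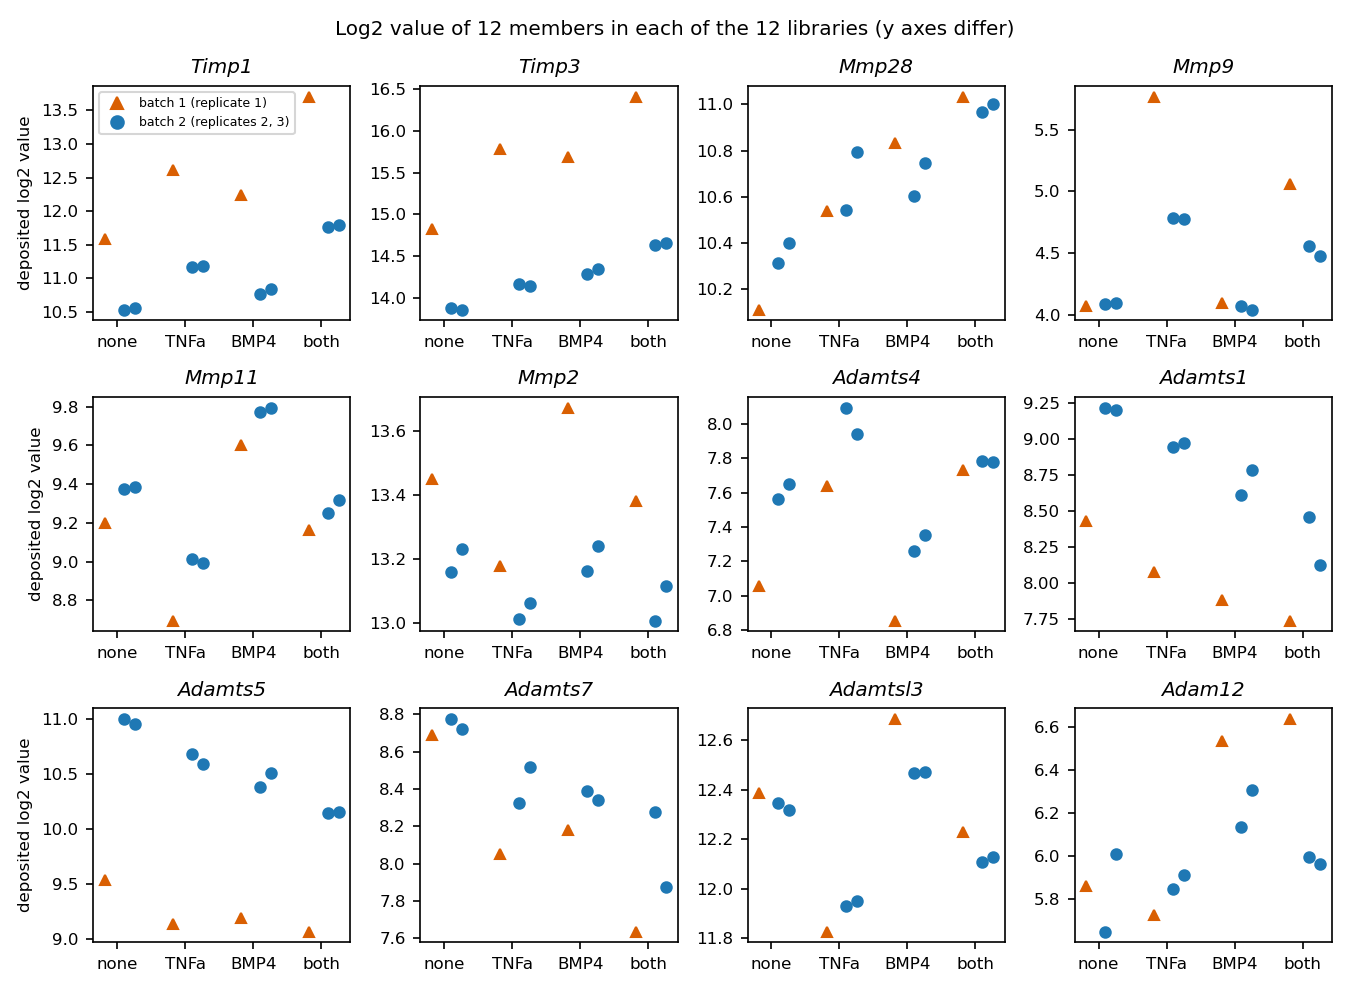
Deposited log2 value (y axis, a separate range in each panel) of 12 members in every library by treatment (x axis, "none" is untreated), with triangles for batch 1 (replicate 1) and circles for batch 2 (replicates 2 and 3). In the Timp1 panel values run from 10.53 to 13.70 and the library with both factors is the highest of each batch; in the Adamts5 panel they run from 9.07 to 11.00 and it is the lowest of each batch.

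Of the 9 tested ADAMTS genes, 3 fell in all 5 pairwise comparisons, as did 0.535% of all genes tested. Adamts1 and Adamts5, proteases that cut aggrecan and versican, lie next to each other on chromosome 16 with no other protein-coding gene between them. Adamts1 (NM_009621, 16:85793828-85803113, minus strand) had log2 values of 8.43, 9.22 and 9.20 untreated, 8.07, 8.95 and 8.97 with TNFa, 7.88, 8.61 and 8.79 with BMP4, and 7.74, 8.46 and 8.12 with both. Batch 1 was below batch 2 in every group, so pooled groups overlapped, and within each batch the order was untreated, TNFa, BMP4, both from high to low. Adamts1 fell by 0.29 with TNFa (SE 0.09, adjusted p = 0.0281), by 0.52 with BMP4 (0.000304) and by 0.84 with both (1.95e-07). It fell by 0.56 from TNFa to both and by 0.32 from BMP4 to both. The TNFa call was lost without any 1 of untreated replicates 1, 2 and 3 or TNFa replicates 1 and 2 (-0.30 to -0.23), and with no minimum level. The step from BMP4 to both was lost without BMP4 replicate 3 (-0.26) or TNFa+BMP4 replicate 3 (-0.19).

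Adamts5 (NM_011782, 16:85858157-85901125, minus strand), the main aggrecanase of mouse cartilage, followed the same directions. Its log2 values were 9.54, 11.00 and 10.95 untreated, 9.14, 10.68 and 10.59 with TNFa, 9.19, 10.38 and 10.51 with BMP4, and 9.07, 10.15 and 10.16 with both. Within each batch the untreated libraries were the highest and those with both factors the lowest. Adamts5 fell by 0.36 with TNFa (SE 0.07, adjusted p = 0.000888), 0.47 with BMP4 (0.000108) and 0.71 with both (1.45e-07). It fell by 0.35 from TNFa to both and by 0.24 from BMP4 to both. The last call was lost without BMP4 replicate 1 or 3 or TNFa+BMP4 replicate 2 or 3 (-0.21 to -0.19), with no minimum level and with no variance trend.

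Adamts7 (NM_001326351, 9:90162978-90200102, plus strand), a protease of cartilage oligomeric matrix protein, was the third of these genes. The libraries gave log2 values of 8.69, 8.78 and 8.72 untreated, 8.05, 8.33 and 8.52 with TNFa, 8.18, 8.39 and 8.34 with BMP4, and 7.64, 8.27 and 7.88 with both. All treated libraries were below all untreated ones, and the treated groups overlapped each other. Adamts7 fell by 0.43 with TNFa (SE 0.10, adjusted p = 0.00292), 0.43 with BMP4 (0.0054) and 0.80 with both (1.66e-06). It fell by 0.37 from TNFa to both and by 0.37 from BMP4 to both. The first of these steps was lost without TNFa replicate 3 or TNFa+BMP4 replicate 1 or 3, and the second without TNFa+BMP4 replicate 1 or 3 (all -0.30 to -0.29). The first was also lost with no minimum level. The BMP4 call was lost without untreated replicate 1 (-0.34, adjusted p = 0.0601). Adamts7 shares 122 of 6282 exon bases with Tbc1d2b on the other strand, which changed by -0.01 with TNFa (not called), -0.40 with BMP4 and -0.34 with both.

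Adamts4 (NM_172845, 1:171250129-171262267, plus strand), the other classical aggrecanase, went the other way with TNFa. Its values on the log2 scale were 7.06, 7.56 and 7.65 untreated, 7.64, 8.09 and 7.94 with TNFa, 6.86, 7.26 and 7.36 with BMP4, and 7.73, 7.79 and 7.78 with both. Within each batch the libraries with TNFa lay above those without it, and the BMP4 libraries were the lowest. Adamts4 rose by 0.47 ± 0.09 with TNFa (adjusted p = 0.000958) and by 0.61 ± 0.09 from BMP4 to both (5.48e-05). With BMP4 alone it differed from untreated by -0.27 ± 0.09, which was not called (adjusted p = 0.0661). The rise with both, 0.34 ± 0.09, was lost without untreated replicate 1 (0.26) or TNFa+BMP4 replicate 1 (0.21) and in batch 2 alone.

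Adamts10, which acts on fibrillin microfibrils, had log2 values of 9.11, 8.64 and 8.49 untreated, 8.70, 8.61 and 8.53 with TNFa, 8.77, 8.59 and 8.57 with BMP4, and 8.59, 8.35 and 8.45 with both. The libraries with both factors were the lowest of each batch, and pooled groups overlapped. It fell by 0.28 with both (SE 0.08, adjusted p = 0.0129), a call lost without untreated replicate 1 (-0.15) or TNFa+BMP4 replicate 1 (-0.24) and in batch 2 alone. Adamts2, Adamts6, Adamts12 and Adamts14 were called in no comparison.

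Among the ADAMTS-like genes, Adamtsl3 (NM_001190374, 7:82335694-82614448, plus strand) moved in the same directions as Mmp11 with each single factor. Replicates 1, 2 and 3 had log2 values of 12.38, 12.35 and 12.32 untreated, 11.83, 11.93 and 11.95 with TNFa, 12.69, 12.46 and 12.47 with BMP4, and 12.23, 12.11 and 12.13 with both. The 4 groups did not overlap, with BMP4 highest, then untreated, then both, then TNFa. Adamtsl3 fell by 0.45 with TNFa (SE 0.05, adjusted p = 3e-06), rose by 0.19 ± 0.05 with BMP4 (0.0239) and fell by 0.19 with both (0.00933). It was 0.25 ± 0.05 higher with both than with TNFa, and fell by 0.39 from BMP4 to both. The BMP4 call was lost without untreated replicate 1 or 3 or BMP4 replicate 1 (0.13 to 0.19), and the step from TNFa to both without TNFa replicate 1 (0.17). The BMP4 call was also lost with no minimum level, quantile normalization or no variance trend. Several lineage markers had the same order of group means as Mmp11 and Adamtsl3, from BMP4 through untreated and both to TNFa. Of the 5 chondrocyte markers these were Sox9 (12.73, 12.27, 11.85 and 11.52 in that order) and Col11a2 (7.66, 7.60, 7.37 and 7.36), while Col2a1 stood at 15.32, 14.67, 15.22 and 14.61, and Acan and Col9a1 were at 0 in every group. Of the 8 osteoblast markers, Runx2 had the same order (10.68, 10.52, 10.13 and 9.92). Sp7 was also highest with BMP4 (5.93) and lowest with TNFa (4.78), but stood higher with both (5.33) than untreated (5.13). Col1a1 (17.36, 17.33, 17.14 and 17.20) and Col1a2 (17.53, 17.52, 17.43 and 17.49) were lowest with both. Spp1 was lowest with BMP4 and highest with both (12.42, 12.53, 12.62 and 12.60). Alpl, Bglap and Ibsp were near or below 0 in every group. The part of these markers in the values of both members was not tested.

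Adamtsl1, also known as punctin, rose with TNFa alone. In log2, it stood at 8.04, 7.34 and 7.40 untreated, 8.77, 7.59 and 7.89 with TNFa, 7.90, 7.20 and 7.33 with BMP4, and 8.23, 7.23 and 7.34 with both. The TNFa libraries were the highest of each batch. Adamtsl1 rose by 0.49 ± 0.10 with TNFa (adjusted p = 0.000931), fell by 0.48 from TNFa to both (0.00191) and differed by 0.01 ± 0.10 between both and untreated. Adamtsl5, which had log2 values of 10.96, 10.16 and 10.21 untreated, 10.70, 10.09 and 10.24 with TNFa, 10.83, 10.17 and 10.07 with BMP4, and 10.60, 10.08 and 10.11 with both, fell by 0.18 with both (SE 0.06, adjusted p = 0.0357). Its libraries overlapped between groups, and the call was lost without untreated replicate 1 or 3 or TNFa+BMP4 replicate 1 or 2 (-0.19 to -0.11), with no minimum level, with no variance trend and in batch 2 alone. Adamtsl4 was called in no comparison.

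Of the 10 tested ADAM genes, 4 were called in at least 1 contrast, a share near the 39.6% of all genes. Their called changes in the main fit were increases. Adam8 (NM_007403, 7:139978932-139992562) encodes a sheddase with a role in cell fusion. On the log2 scale the libraries read 6.05, 6.54 and 6.51 untreated, 6.35, 6.93 and 6.95 with TNFa, 6.01, 6.55 and 6.52 with BMP4, and 6.36, 6.81 and 6.63 with both. In each batch the libraries with TNFa lay above those without it. Adam8 rose by 0.37 ± 0.08 with TNFa (adjusted p = 0.00189), by 0.23 ± 0.08 with both (0.0313) and by 0.24 ± 0.08 from BMP4 to both (0.0417). The second call was lost without any untreated replicate or TNFa+BMP4 replicate 1 or 2 (0.17 to 0.24). The third was lost without any BMP4 replicate, TNFa replicate 2 or 3, or TNFa+BMP4 replicate 1 or 2 (0.19 to 0.25). The second and the third were lost in batch 2 alone, and the third also with no minimum level or quantile normalization.

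Adam19 (NM_001291891, 11:46055984-46147347), meltrin beta, cleaves neuregulin. Log2 values of the 3 replicates were 9.44, 8.95 and 8.88 untreated, 9.86, 9.26 and 9.27 with TNFa, 9.98, 8.97 and 8.97 with BMP4, and 10.26, 9.10 and 9.28 with both. Within each batch all treated libraries were above the untreated ones, by 0.54 with BMP4 in batch 1 and 0.06 in batch 2. Adam19 rose by 0.38 ± 0.09 with TNFa (adjusted p = 0.00647) and by 0.46 ± 0.09 with both (0.000646). The TNFa call was lost without untreated replicate 1 (0.25, adjusted p = 0.09).

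Adam12 (NM_007400, 7:133883199-134225097), meltrin alpha, a protease of insulin-like growth factor binding proteins, rose with BMP4. The per-library log2 values were 5.86, 5.65 and 6.01 untreated, 5.73, 5.85 and 5.92 with TNFa, 6.54, 6.14 and 6.31 with BMP4, and 6.64, 6.00 and 5.97 with both. The BMP4 libraries lay above all untreated ones, while those with both factors overlapped them. Adam12 rose by 0.48 ± 0.13 with BMP4 (adjusted p = 0.014) and by 0.36 ± 0.13 with both (0.0348). The first call was lost without untreated replicate 1 or 2 or BMP4 replicate 1 or 3 (0.40 to 0.46). The second was lost without untreated replicate 1 or 2 (0.28 and 0.30) or TNFa+BMP4 replicate 1 (0.16). Both were lost with no minimum level, and the second also with no variance trend, robust moderation or batch 2 alone.

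Adam10 (NM_007399, 9:70678982-70780229), the alpha-secretase that starts Notch cleavage, changed little. In the 12 libraries its log2 values were 11.45, 11.48 and 11.37 untreated, 11.27, 11.35 and 11.31 with TNFa, 11.67, 11.55 and 11.62 with BMP4, and 11.49, 11.45 and 11.46 with both. The BMP4 libraries lay above all others. Adam10 rose by 0.18 ± 0.05 with BMP4 (adjusted p = 0.017) and by 0.16 ± 0.05 from TNFa to both (0.0375). The first call was lost without untreated replicate 1 or 3 or BMP4 replicate 1 or 3 (0.15 to 0.18), and the second without BMP4 replicate 3, any TNFa replicate or any TNFa+BMP4 replicate (0.12 to 0.19). Both were lost with quantile normalization or no variance trend, and the second also with no minimum level or in batch 2 alone. Adam10 stood 0.12 lower with TNFa (adjusted p = 0.111) and 0.14 lower from BMP4 to both (0.0516), neither called by limma. With quantile normalization limma called both of these falls (-0.18, adjusted p = 0.00901, and -0.15, adjusted p = 0.0239). The fall from BMP4 to both was also called on leaving out some single libraries. Adam17, the enzyme that sheds TNF itself, was not called in any comparison, with log2 values between 9.95 and 10.25. Adam9, Adam15, Adam22, Adam23 and Adam1a were not called either, and fold changes of the 15 members called in no comparison ran from -0.23 to 0.14 in the 5 pairwise comparisons.

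Departure from additivity was tested as the TNFa response of BMP4-treated cells minus that of cells without BMP4. By limma, 0 of 35 members and 2 of 11765 genes (0.017%) were called. At an unadjusted p under 0.05 there were 2 members, Timp1 (0.38 ± 0.14) and Adamtsl1 (-0.36 ± 0.14), and 560 genes overall. In batch 2 alone Timp1 was called, at 0.35 (adjusted p = 0.0205). A test that misses the threshold with 3 libraries a group does not show that effects add.

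The size of several changes differed between batches. Levels of 26 of 35 members differed by batch, against 7541 of 11765 genes, with batch 2 minus batch 1 at -1.46 for Timp1, -1.43 for Timp3 and 1.32 for Adamts5. Within batch 1, where each group is 1 library, Timp1 with both factors exceeded untreated by 2.12, and in batch 2 by 1.24. For Timp3 the same differences were 1.58 and 0.77, and for Mmp9 with TNFa 1.70 and 0.68. Adamts5 with both factors was lower in batch 2 (-0.82) than in batch 1 (-0.47), relative to untreated cells of the same batch. What differs between the batches is not given in the labels, and its part in these values was not tested.

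**Figure D4:**
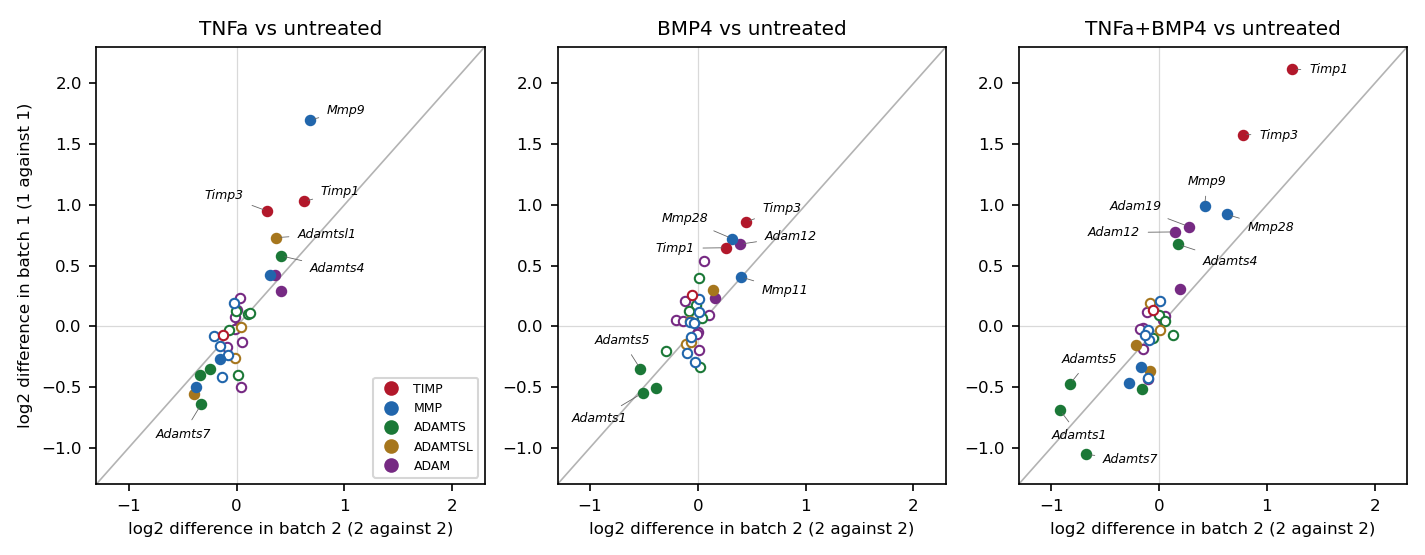
Log2 difference from untreated in batch 1 (y axis, 1 library against 1) and batch 2 (x axis, means of 2 libraries against 2) for the 35 tested members, with 1 panel per treatment, color by family and the gray diagonal marking equal differences. Filled points were called with batch in the model; called points lie in the upper right or lower left of each panel, and Timp1, Timp3 and Mmp9 lie well above the diagonal with TNFa and with both factors.

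Genes outside the families but of the same pathways were counted in 4 lists. The lists were chosen with earlier results of these data known, so their counts beside the shares of all genes are a description only. Of 26 activators and inhibitors of extracellular proteolysis, 16 were tested, and 5 were called with TNFa (4 higher, 1 lower), 4 with BMP4 (2 higher, 2 lower) and 8 with both (4 higher, 4 lower), against 15.5%, 12.2% and 31.2% of all genes. The medians over the 16 were -0.03, 0.01 and -0.07 in these comparisons, against -0.01, 0.00 and 0.00 over all genes. Plaur, the urokinase receptor, rose by 0.51 ± 0.10 with TNFa and 0.71 ± 0.10 with both, and Plau, urokinase, fell by 0.46 with BMP4 (SE 0.09). From TNFa to both, 4 were called (1 higher, 3 lower), against 11.7% of all genes, with Plau changed by -0.46. From BMP4 to both, 6 were called (4 higher, 2 lower), against 16.2% of all genes, with Plaur up by 0.64. That last count was 3 without BMP4 replicate 1 or TNFa+BMP4 replicate 1. The count from TNFa to both was 2 without any 1 of the TNFa replicates or TNFa+BMP4 replicates 1 and 2, and the TNFa count was 3 without untreated replicate 1 or TNFa replicate 3.

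Partners that carry ADAM17 and ADAM10 to the surface went in both directions. Of 7 tested of 9, 6 were called with TNFa (3 higher, 3 lower), 2 with BMP4 (1 higher, 1 lower) and 6 with both (3 higher, 3 lower), against 15.5%, 12.2% and 31.2% of all genes, with medians of 0.05, -0.14 and 0.02. Rhbdf2, the iRhom that carries ADAM17, rose by 0.72 ± 0.10 with TNFa and 0.45 ± 0.10 with both. Tspan15, a tetraspanin partner of ADAM10, fell by 0.31 with TNFa, 0.39 with BMP4 and 0.73 with both (SE 0.05). Rhbdf1 rose by 0.19 ± 0.05 with BMP4. Tspan15 was the 1 gene called from TNFa to both (-0.42), a share near the 11.7% of all genes. From BMP4 to both 4 were called (2 higher, 2 lower), against 16.2% of all genes, led by Rhbdf2 (0.62) and Tspan15 (-0.34). The BMP4 count was 1 without untreated replicate 1 or 2 or BMP4 replicate 1, and the count from TNFa to both was 2 without TNFa+BMP4 replicate 1.

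In the list of cell-surface proteins that ADAMs release, most tested genes rose where TNFa was given. Of 20 tested of 28, 15 were called with TNFa (12 higher, 3 lower), 3 with BMP4 (1 higher, 2 lower), 14 with both (11 higher, 3 lower) and 15 from BMP4 to both (12 higher, 3 lower), against 15.5%, 12.2%, 31.2% and 16.2% of all genes. The BMP4 count is near its background. The median over the 20 was 0.37 with TNFa, -0.01 with BMP4 and 0.46 with both, against -0.01, 0.00 and 0.00 over all genes. The membrane chemokine Cx3cl1 rose by 2.64 ± 0.12 with TNFa and 2.35 ± 0.12 with both, and the adhesion protein Vcam1 by 2.29 ± 0.05 and 2.20 ± 0.05. From BMP4 to both they rose by 2.35 and 2.29. With BMP4, the growth factor betacellulin (Btc) fell by 0.44 (SE 0.10) and Notch1 by 0.29 (SE 0.08). From TNFa to both 5 were called (2 higher, 3 lower), against 11.7% of all genes, with Btc at -0.56 and Notch1 at -0.44. The BMP4 count was 0 without untreated replicate 1 and 6 without TNFa+BMP4 replicate 1, and the count from TNFa to both was 3 without TNFa replicate 2 or TNFa+BMP4 replicate 1. RNA levels do not measure shedding.

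Noncollagen matrix proteins cut by MMPs or ADAMTS enzymes were the fourth list. Of 17 tested of 23, 7 were called with TNFa (3 higher, 4 lower), 4 with BMP4 (3 higher, 1 lower) and 6 with both (4 higher, 2 lower), against 15.5%, 12.2% and 31.2% of all genes, the last share being near the list's own. The list had medians of -0.0013, 0.10 and -0.0083. Versican (Vcan), a substrate of Adamts1 and Adamts5, rose by 0.41 ± 0.10 with TNFa and 0.54 ± 0.10 with both. Tenascin C (Tnc) rose by 0.37 ± 0.12 with TNFa, 0.54 ± 0.12 with both and 0.39 ± 0.12 from BMP4 to both. Fibromodulin (Fmod) rose by 0.58 ± 0.07 with BMP4 and by 0.58 ± 0.07 from TNFa to both, and Thbs1 rose by 0.22 ± 0.05 with BMP4. Postn rose by 0.22 ± 0.06 from TNFa to both, where 2 were called (2 higher, 0 lower). The share of all genes there was 11.7%, near the list's own. Fbn2 fell by 0.32 from BMP4 to both (SE 0.09), where 6 were called (1 higher, 5 lower), against 16.2% of all genes. The TNFa count was 2 without untreated replicate 1, 3 without untreated replicate 2 or TNFa replicate 1 and 4 without TNFa replicate 3. The BMP4 count was 2 without untreated replicate 3 or BMP4 replicate 1 or 2. From TNFa to both it was 1 without TNFa replicate 1 or 2 or TNFa+BMP4 replicate 2 and 4 without BMP4 replicate 1, and from BMP4 to both 2 without TNFa+BMP4 replicate 1.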

How the data were processed

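PolyA RNA of 12 MC3T3-E1 libraries was sequenced by the submitters. Their processing notes name Trim Galore, HISAT2, HOMER and the mm10 build, without versions. HOMER took raw exon reads, kept 1 transcript per gene and tested groups with batch as a factor, per the file headers. The deposited values per library are log2 values of a normalization that the headers do not name. Low values are compressed towards a constant, so small changes of low genes are understated. The authors also deposited log2 fold changes and adjusted p-values, which are quoted by name. Tag totals are in the headers, and counts per gene were not used here.

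All 4 groups were fitted with limma 3.58.1 (R 4.3.3), with batch as an additive term, a trend in the variances and 7 residual degrees of freedom. Tested genes needed a mean log2 value of at least 4, and adjusted p-values (Benjamini-Hochberg, two-sided) cover all 11765 genes of each contrast. The fit was tested on simulated data. Per-kilobase levels subtract the log2 of transcript length. Exon overlaps were read from GENCODE vM21, and neighbors and promoters from RefSeq GRCm38.p6. Values per library are given for every member called in at least 1 of 6 contrasts, with the 2 largest called changes of each pathway list per contrast, of which 1 gene is not reported here. Members and lists were chosen with earlier results of these data known. Alternatives were no batch term, a replicate block, other minimum levels, quantile normalization, no variance trend, robust moderation, batch 2 alone and leaving out each library.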

Additional observations from a re-analysis of the deposited data

Results flagged for a closer look

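Treatment effects of batch 1 (1 library a group) and batch 2 (2 libraries a group) were compared by a test of their difference, chosen after the data had been seen, in which the spread comes from the pairs of batch 2. It called 1.05% of the 11765 genes for TNFa, 4.68% for BMP4 and 5.78% for both factors, and 14 results among members. The effect of TNFa was larger in batch 1 than in batch 2 by 1.02 for Mmp9, 0.40 for Timp1 and 0.66 for Timp3, all log2 differences. The effect of BMP4 was larger in batch 1 by 0.48 for Adam19, 0.40 for Mmp28, 0.38 for Timp1 and 0.41 for Timp3. For Timp2 the effects differed by 0.31 and in sign, at 0.26 in batch 1 and -0.05 in batch 2. Timp2 and Adam19 were not called for BMP4 with batch as an additive term. The effect of both factors was larger in batch 1 by 0.63 for Adam12, 0.54 for Adam19, 0.57 for Mmp9, 0.88 for Timp1 and 0.80 for Timp3. For Adamts5 the fall with both factors was smaller in batch 1, by 0.35. Groups of 3 libraries were not searched for outlying samples.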

How the results depend on the processing

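The 63 calls of single members kept their direction under every alternative run. Fold changes are the same without the batch term and with a replicate block, other minimum levels, no variance trend or robust moderation. Direction could therefore change only with quantile normalization, in batch 2 alone or on leaving out libraries. Several alternatives also gave calls absent from the main fit, among them quantile normalization, batch 2 alone and leaving out single libraries. All 63 held with a replicate block and with equal batch weights in the minimum level, 59 with quantile normalization, 57 with robust moderation, 54 with no variance trend, 54 in batch 2 alone, 50 with no minimum level and 6 without the batch term; at a minimum of 6, 59 could be tested and all 59 held. Without the batch term the members called were 2 for TNFa, 0 for BMP4, 2 for both factors, 0 from TNFa to both and 2 from BMP4 to both, by limma, and the cause was not tested. Over all genes the calls without it were 383, 114, 869, 105 and 345 in the same order. Leaving out 1 library kept 50 to 61 of the 63 calls. The counts then ranged from 12 to 14 for TNFa, 6 to 11 for BMP4, 10 to 17 for both, 8 to 13 from TNFa to both, 8 to 15 from BMP4 to both, and 0 to 0 for the interaction. Over all 11765 genes they ranged, in the same order, from 1297 to 2084, 756 to 1642 and 2560 to 4014. The rest were 752 to 1726, 1320 to 2094 and 0 to 7. In batch 2 alone the interaction was called for 1 member and for 15 of all genes. The labels do not say whether libraries of the same replicate number were handled together. Across the 6 pairs of groups in batch 2, the differences between replicates 3 and 2 correlated at 0.02 to 0.164, which cannot settle this. The replicate block left the counts at 14, 10, 16, 10, 13 and 0. Quantile normalization moved the median gene by -0.016 at most, and shifted the balance of calls over all genes from 1973 higher and 1700 lower to 1643 and 2020 with both factors, from 794 and 644 to 605 and 687 with BMP4, from 1033 and 872 to 940 and 1024 from BMP4 to both, and from 1078 and 744 to 963 and 951 with TNFa. With 3 libraries a group in 2 batches, small changes rest on single libraries.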
